A study of Homo sapiens with 12 samples.

Results

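Genes that copy DNA and open S phase were followed in A172 cells that overexpress hHSS1. The set held 51 genes, listed by name for their role, and each was read by the probe set with a single gene symbol and the highest mean over the 12 arrays. All 51 of 51 had such a probe set, among 18417 genes measured. CLSPN and UHRF1 had a second probe set. A172 cells grow attached to the plate and derive from a human glioblastoma (1 label field spells the line A712). Clone 7 and clone 8 were A172 lines stably transfected with pcDNA3.1 carrying His-tagged hHSS1, now named EMC10. The mock line was stably transfected with the empty pcDNA3.1 vector, and wild-type A172 cells were not transfected. The paper states that stable clones were kept under G-418, without naming the mock line or wild-type cells there. Each of the 4 groups had 3 arrays, from cultures plated separately and harvested after 4 days. Clone 7 and clone 8 are each 1 clone and the mock line is 1 line, so the p-values measure the spread between cultures of these lines, not between independently made lines.

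Replication starts in G1, when the origin recognition complex with CDC6 and CDT1 loads rings of MCM2 to MCM7 onto DNA, an act called licensing. In S phase CDC45 and the GINS complex join the ring to form the active helicase, primase and the polymerases copy both strands, and a sliding clamp, its loader and the lagging-strand enzymes complete them. Many of these genes are transcribed in late G1 by E2F factors once the retinoblastoma protein is inactivated, and glioblastoma cells commonly carry lesions in that pathway.

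The array values were log2 levels of each probe set, so a difference of 1 stands for a doubling. Levels of different genes on these arrays are not compared. hHSS1 itself (EMC10) lay at 11.57 to 12.30 in the clones, against 9.20 to 9.51 in mock and 10.43 to 11.13 in wild-type. Mock therefore had less hHSS1 transcript than wild-type, and the probe set reads vector and cellular transcripts together. The array medians over all probe sets lay between 8.60 and 8.67. Of 12 astroglial and glioma markers, VIM, CD44, EGFR and SOX9 were above the median of the 18417 genes on each array, while S100B and AQP4 were below the lower quartile on each array. Their summed log2 level was 110.8 to 112.6 in the clones and 112.5 to 113.5 in the controls, with nestin (NES) at a mean of 8.86 in clone 7 and 8.98 in clone 8, against 9.65 in mock and 10.08 in wild-type. The part of these shifts in the results below was not tested. Over the markers of leukocytes, endothelium, epithelium and neurons (4 each), the summed levels of clones and controls overlapped, as in leukocyte markers at 33.4 to 34.4 in the clones and 33.7 to 34.6 in the controls. The cultures of the clones varied more than the others over all genes, with deviations from the group mean of SD 0.171 in clone 7 replicate 3 and 0.147 to 0.183 in clone 8, against 0.057 to 0.104 on the other arrays. A loss of S-phase cells from a culture and less RNA per cell cannot be told apart in such bulk samples.

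Replication genes stood lower in the hHSS1 clones than in mock cells, by small amounts that ran through most steps of the pathway. At an adjusted p under 0.05, 24 of the 51 genes fell over both clones, or 47.1%, against 3.51% of all genes tested, and 0 rose, against 2.87% of all genes. At an unadjusted p under 0.05, limma gave 38 lower (11.3% of all genes) and 1 higher, CCNE1 (8.68% of all genes). MCM10 alone also passed the study's limit of 1.5-fold, as 0.32% of all genes did downwards. The estimate lay below 0 for 48 of the 51 genes, against 46.3% of all genes. The median difference was -0.28 on the log2 scale, or -17.6%, while the median of all genes was 0.01. The middle of the set was narrow, from -0.35 to -0.18 between its quartiles, and the whole range ran from -0.63 for MCM10 to 0.31 for CCNE1. In 30 genes each of the 6 clone arrays lay below each of the 3 mock arrays, which held for 8.39% of all genes, and in 1 gene, CCNE1, the clone arrays all lay above, as for 5.77% of all genes. In 15 genes the clone arrays also lay below all wild-type arrays, against 4.27% of all genes. These were MCM2, MCM5, MCM6, MCM10, GINS2, ORC6, POLA2, POLD3, POLE, FEN1, RPA1, RRM1, TK1, TIMELESS and UHRF1, of which FEN1 did not pass the test against mock (log2 -0.18 ± 0.07, adjusted p = 0.169).

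The count of 24 was smaller with any mock array left out. It was 10 without mock replicate 1, 9 without mock replicate 2 and 15 without mock replicate 3, while the median difference stayed between -0.31 and -0.25 whichever array was left out. The calls for MCM2, MCM6, MCM10, GINS2, ORC1, ORC6, RFC2, RPA1 and TK1 were kept in all 21 alternative settings. Without mock replicate 1 the calls lost were those for CDC45, E2F1, MCM3, MCM5, MCM7, POLA1, POLA2, POLD3, POLE, RFC5, RRM1, TIMELESS, TYMS and UHRF1. Mock replicate 2 cost the same 14 and RFC4. Without mock replicate 3 the calls for CDC45, E2F1, MCM7, POLA1, POLD3, POLE, RFC5, RRM1, TYMS and UHRF1 were lost. Leaving out clone 7 replicate 1 ended 6 calls (E2F1, MCM7, POLA1, POLE, RFC5 and RRM1) and clone 7 replicate 2 also 6 (E2F1, MCM7, POLA1, POLD3, RFC5 and TYMS). RFC5 was also lost without clone 8 replicate 1 and without wild-type replicate 3. For these and later counts with an array left out, the share of all genes called is not given.

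**Figure D1:**
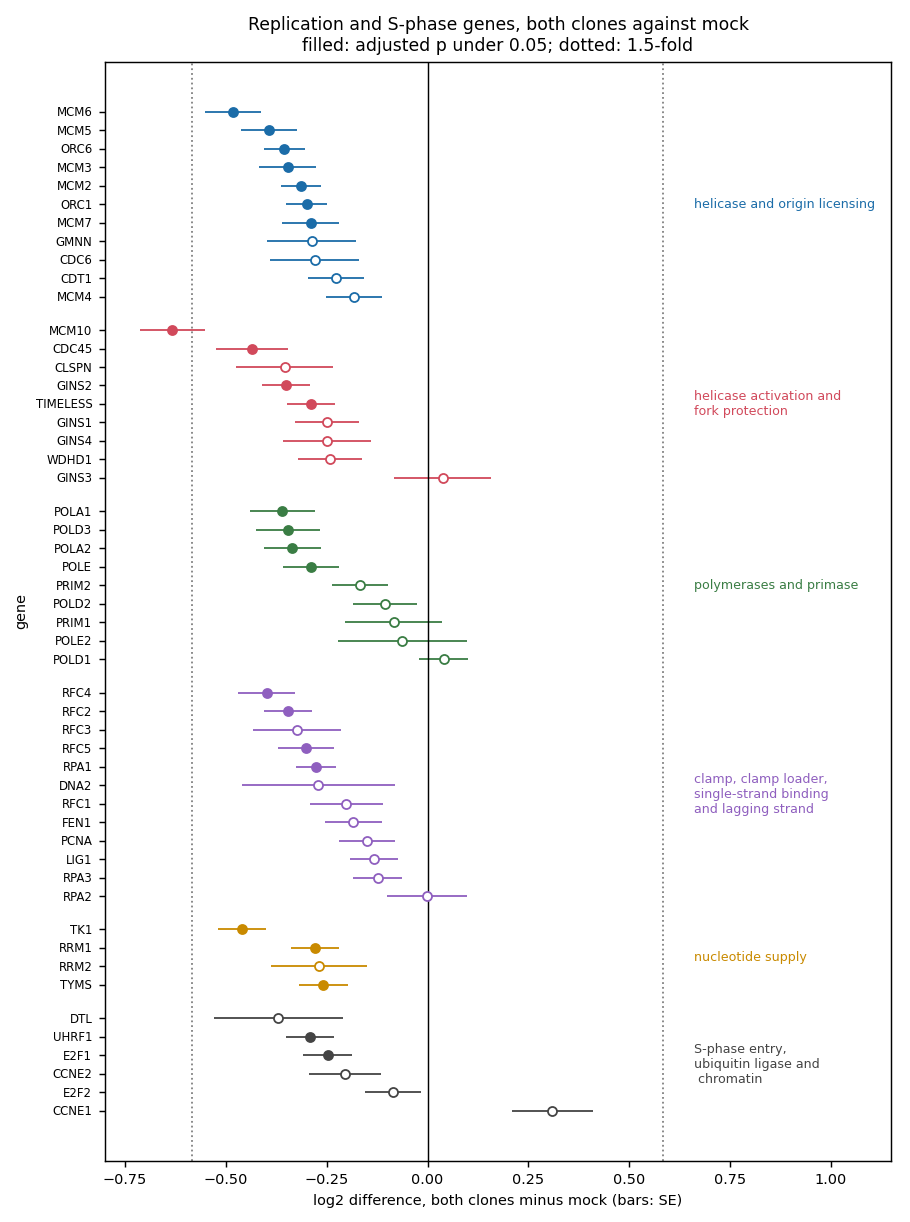
Log2 difference between both clones and mock (horizontal axis) for each of the 51 genes (vertical axis, coloured by role), with the standard error as a bar, filled points at an adjusted p under 0.05 and dotted lines at 1.5-fold. All but 3 estimates lie below 0, MCM10 is the only point beyond a dotted line, and CCNE1 is the only one well to the right.

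The windows around the start sites are shown for 4 genes with an E2F-type word, MCM6, POLA1 and TYMS, which fell, and GINS3, which was not lower in the clones. Each runs from 250 bases before to 50 bases after the RefSeq start (GRCh38.p14), in the direction of the gene, and capitals mark the E2F-type words. MCM6 lies at chr2:135876394-135876693 (minus strand), POLA1 at chrX:24693668-24693967 (plus strand), TYMS at chr18:657403-657702 (plus strand) and GINS3 at chr16:58392221-58392520 (plus strand).
MCM6: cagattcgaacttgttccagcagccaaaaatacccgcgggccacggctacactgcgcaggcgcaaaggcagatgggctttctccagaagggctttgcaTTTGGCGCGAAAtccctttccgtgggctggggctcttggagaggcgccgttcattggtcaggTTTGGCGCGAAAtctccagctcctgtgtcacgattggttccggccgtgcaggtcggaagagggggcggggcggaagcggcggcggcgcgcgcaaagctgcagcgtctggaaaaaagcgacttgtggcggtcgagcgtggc
POLA1: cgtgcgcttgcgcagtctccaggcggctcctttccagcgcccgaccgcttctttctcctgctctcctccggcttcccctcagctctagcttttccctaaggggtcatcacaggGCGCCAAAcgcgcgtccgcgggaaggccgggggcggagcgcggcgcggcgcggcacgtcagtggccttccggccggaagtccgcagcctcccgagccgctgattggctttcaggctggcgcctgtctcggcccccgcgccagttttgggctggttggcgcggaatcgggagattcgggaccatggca
TYMS: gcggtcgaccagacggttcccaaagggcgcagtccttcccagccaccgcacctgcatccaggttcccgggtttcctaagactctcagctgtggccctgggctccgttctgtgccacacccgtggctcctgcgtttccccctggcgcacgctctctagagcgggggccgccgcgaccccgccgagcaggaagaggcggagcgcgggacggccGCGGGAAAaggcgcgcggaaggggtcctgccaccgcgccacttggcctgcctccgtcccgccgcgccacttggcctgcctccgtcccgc
GINS3: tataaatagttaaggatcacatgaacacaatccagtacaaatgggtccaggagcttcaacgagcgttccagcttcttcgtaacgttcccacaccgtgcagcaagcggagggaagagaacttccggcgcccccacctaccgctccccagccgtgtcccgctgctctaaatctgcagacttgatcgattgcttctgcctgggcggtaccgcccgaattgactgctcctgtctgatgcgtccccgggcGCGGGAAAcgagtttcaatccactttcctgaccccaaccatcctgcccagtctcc
The words searched were TTTCCCGC, TTTCGCGC, TTTGCCGC and TTTGGCGC, on both strands. MCM6 had 4, at -152, -148, -90 and -86 from the start, as 2 stretches in which a word on each strand overlaps the other. POLA1 had its word at -137, TYMS at -39 and GINS3 at -5, all on the opposite strand. A match is a run of letters and not a measured site.

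E2F-type words were common among these genes whether or not they fell. RefSeq windows were at hand for 43 of the 51 genes, all but MCM4, MCM5, GINS4, POLD3, DNA2, RPA2, RPA3 and CCNE2, and for 14237 genes in all. An E2F-type word was in 22 of the 43 windows (51.2%), against 4.52% of all windows and 5.67% of the 5552 windows with a GC content of 60 to 71.5%. The windows of the set had a median GC content of 65.7%, against 63% over all genes. Of the genes that fell against mock, 11 of 22 held a word (50%), and of the others 11 of 21 (52.4%). The words took 29 positions, 18 of them from -50 to +50, with a median of -33. The CCAAT box, the word of the factor NF-Y (searched as CCAAT on both strands), was in 25 of 43 windows (58.1%). Over all genes it was in 36.3% of windows, and in 36.6% of those with a GC content of 60 to 71.5%. It was in 16 of 22 windows of genes that fell (72.7%) and 9 of 21 of the others (42.9%), a difference that was not tested. Both kinds of word stood in 13 windows (30.2%), against 1.85% of all. The cell-cycle homology word TTTGAA stood in 1 (2.33%, RRM1), against 11.9% of all and 6.52% of those in the same GC range. MCM10, with the largest difference, held 2 CCAAT boxes, and no E2F-type word was found in its window.

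Of 11 licensing genes, 7 fell and all had estimates below 0, with a median of -0.30. Among the helicase ring genes MCM2 to MCM7, 5 of 6 fell. The largest difference was in MCM6, a core subunit of the ring whose window is printed above. Its log2 levels were 10.59, 10.55 and 10.46 in clone 7 and 10.16, 10.39 and 10.40 in clone 8, against 10.90, 10.97 and 10.86 in mock and 10.76, 10.87 and 10.92 in wild-type. Each clone array was below each control array, with clone 8 replicate 1 lowest. MCM6 fell by 0.48 ± 0.07 (SE) against mock, 1.4-fold (6 arrays against 3, adjusted p = 0.00144). The smallest difference in this step was in MCM4, a ring subunit as well. MCM4 lay at 10.78, 10.79 and 11.04 in clone 7 and 10.92, 10.98 and 10.81 in clone 8, against 11.10, 11.08 and 11.03 in mock and 10.91, 10.88 and 11.02 in wild-type. Clone 7 replicate 3 reached the mock range, and the difference did not pass the test (log2 -0.18 ± 0.07, adjusted p = 0.148). MCM5 (log2 -0.39 ± 0.07), MCM3 (log2 -0.35 ± 0.07), MCM2 (log2 -0.31 ± 0.05) and MCM7 (log2 -0.29 ± 0.07) lay between.

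ORC6 (log2 -0.36 ± 0.05, adjusted p = 0.00246) and ORC1 (log2 -0.30 ± 0.05, adjusted p = 0.00544), subunits of the origin recognition complex, also fell. CDC6 and CDT1, which bring the ring to the origin, were at log2 -0.28 ± 0.11 (adjusted p = 0.188) and -0.23 ± 0.07 (adjusted p = 0.0989). Geminin (GMNN), which holds CDT1 inactive after licensing, was at log2 -0.29 ± 0.11 (adjusted p = 0.169). The sizes of CDC6 and GMNN were close to that of MCM7, but their cultures differed more, with an SD in clone 8 of 0.313 for CDC6 and 0.295 for GMNN, against 0.146 for MCM7.

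MCM10, a scaffold that activates the loaded helicase, had the largest difference of the set. It was at 10.14, 10.19 and 10.17 in clone 7 and 10.01, 10.37 and 10.00 in clone 8, against 10.77, 10.78 and 10.80 in mock and 10.47, 10.67 and 10.53 in wild-type. Clones, wild-type and mock stood in that order with no overlap, and clone 8 replicate 2 was the highest clone array. MCM10 fell by 0.63 ± 0.08 on the log2 scale, 1.55-fold (adjusted p = 0.000778), and passed both limits in clone 7 (log2 -0.61 ± 0.09, adjusted p = 0.00368) and in clone 8 (log2 -0.65 ± 0.09, adjusted p = 0.00252). It lies on chromosome 10, where its 20 nearest genes had a median difference of -0.17, the lowest neighbourhood of the set. CDC45, part of the active helicase, fell by 0.44 ± 0.09 (adjusted p = 0.0157).

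Of the 4 GINS subunits, which hold the helicase to CDC45, 1 passed the test. GINS2 fell by 0.35 ± 0.06 (adjusted p = 0.00333), and its clone arrays lay within 12.14 to 12.20, against 12.41 to 12.60 in mock. GINS1 (log2 -0.25 ± 0.08) and GINS4 (log2 -0.25 ± 0.11) did not pass the test. GINS3 was at 10.70, 10.79 and 11.18 in clone 7 and 11.03, 11.25 and 10.71 in clone 8, against 10.98, 10.90 and 10.84 in mock and 10.75, 10.89 and 10.90 in wild-type. The clone arrays lay on both sides of the controls, and the estimate was 0.04 ± 0.12 (adjusted p = 0.903). Differences between subunits were not tested. Of the genes that steady the fork, TIMELESS fell by 0.29 ± 0.06 (adjusted p = 0.0107), while the checkpoint mediator CLSPN (log2 -0.35 ± 0.12, adjusted p = 0.11) and WDHD1, which ties polymerase alpha to the helicase (log2 -0.24 ± 0.08, adjusted p = 0.0999), did not pass. The second, dimmer probe set of CLSPN was lower at log2 -0.25 ± 0.06 (adjusted p = 0.0212), so the call for this gene depended on the probe set.

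**Figure D2:**
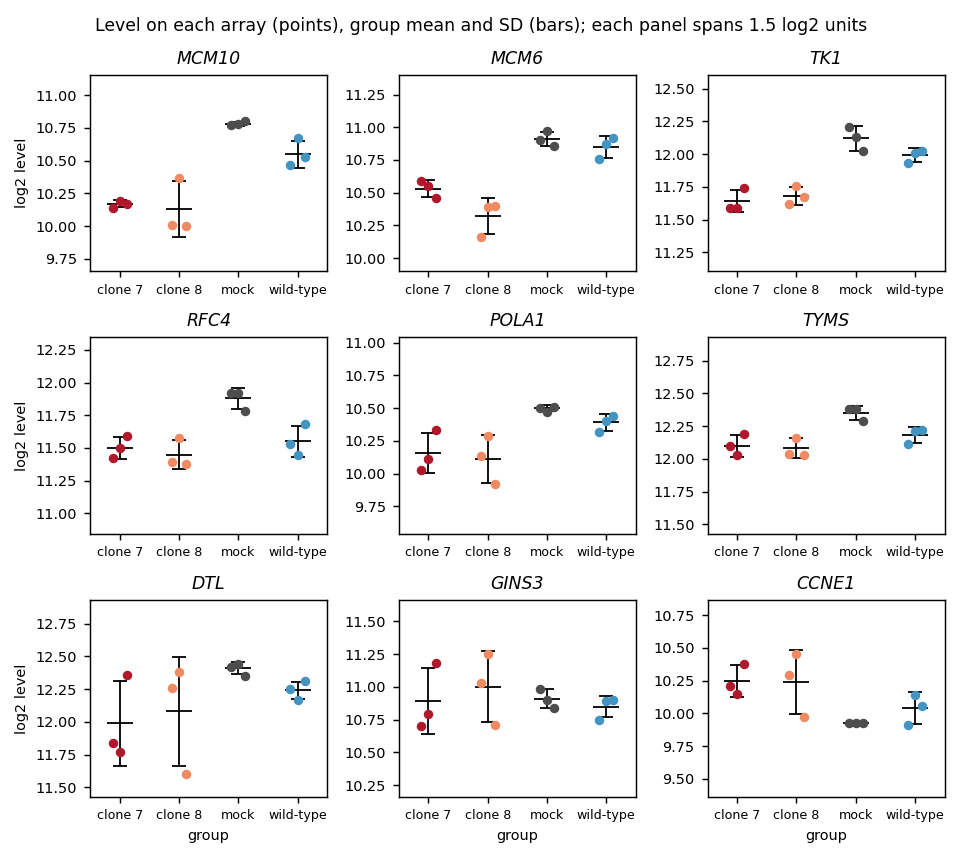
Log2 level (vertical axis) on each array of clone 7, clone 8, mock and wild-type (horizontal axis) for MCM10, MCM6, TK1, RFC4, POLA1, TYMS, DTL, GINS3 and CCNE1, with points for arrays and bars for the group mean and SD. MCM10, MCM6 and TK1 separate the clones from both controls, RFC4 separates them from mock only, DTL and GINS3 spread widely within each clone, and CCNE1 lies higher in the clones than in mock.

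Of 9 polymerase and primase genes, 4 fell and 8 had estimates below 0, with a median of -0.17. POLA1, the catalytic subunit of polymerase alpha, which extends the RNA primers, had the largest difference. Its levels were 10.03, 10.11 and 10.33 in clone 7 and 10.13, 10.29 and 9.92 in clone 8, against 10.50, 10.47 and 10.51 in mock and 10.32, 10.40 and 10.44 in wild-type. All clone arrays were below mock, and clone 7 replicate 3 reached just above the lowest wild-type array. POLA1 fell by 0.36 ± 0.08 (adjusted p = 0.0227), its partner POLA2 by 0.33 ± 0.07 (adjusted p = 0.0132), while the primase subunits PRIM1 (log2 -0.08 ± 0.12) and PRIM2 (log2 -0.17 ± 0.07) did not pass. Of polymerase epsilon, which copies the leading strand, the catalytic subunit POLE fell by 0.29 ± 0.07 (adjusted p = 0.0218) and POLE2 was at log2 -0.06 ± 0.16.

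Polymerase delta, the lagging-strand polymerase, had POLD3 lower (log2 -0.35 ± 0.08, adjusted p = 0.0234), POLD2 at log2 -0.10 ± 0.08 and the catalytic POLD1 near 0. POLD1 was at 9.69, 9.63 and 9.84 in clone 7 and 9.73, 9.79 and 9.68 in clone 8, against 9.73, 9.71 and 9.62 in mock and 9.78, 9.81 and 9.87 in wild-type. The clones overlapped both controls, mock lay below wild-type with no overlap, and the estimate was 0.04 ± 0.06 (adjusted p = 0.766). POLD1 lies on chromosome 19 with EMC10 among its 10 nearest genes on either side, and the median of those neighbours was 0.08.

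At the clamp and the lagging strand 4 of 12 genes fell, with a median of -0.24. RFC4, a subunit of the loader that places the clamp on DNA, was at 11.42, 11.50 and 11.59 in clone 7 and 11.39, 11.58 and 11.38 in clone 8, against 11.92, 11.92 and 11.78 in mock and 11.53, 11.45 and 11.68 in wild-type. Clones and wild-type overlapped, and mock stood above both. RFC4 fell by 0.40 ± 0.07 against mock (adjusted p = 0.00609) and was at log2 -0.08 ± 0.07 against wild-type (adjusted p = 0.523). The loader subunits RFC2 (log2 -0.35 ± 0.06, adjusted p = 0.00502) and RFC5 (log2 -0.30 ± 0.07, adjusted p = 0.0319) fell as well, and RFC3 (log2 -0.32 ± 0.11) and RFC1 (log2 -0.20 ± 0.09) did not pass. PCNA, the clamp itself, was at log2 -0.15 ± 0.07 (adjusted p = 0.266).

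Of replication protein A, which coats single-stranded DNA, RPA1 fell by 0.28 ± 0.05 (adjusted p = 0.00501), RPA3 was at log2 -0.12 ± 0.06, and RPA2 was at log2 -0.00 ± 0.10. RPA2 lay at 8.50, 8.38 and 8.59 in clone 7 and 8.38, 8.72 and 8.47 in clone 8, against 8.66, 8.59 and 8.28 in mock and 8.41, 8.71 and 8.58 in wild-type. All groups overlapped, at levels around the array median, and RPA2 had the widest spread in mock of the set (SD 0.204). The flap nuclease FEN1, the ligase LIG1 (log2 -0.13 ± 0.06) and the nuclease and helicase DNA2 (log2 -0.27 ± 0.19) did not pass. DNA2 spread over 8.99 to 9.93 in clone 8, an SD of 0.502, the highest of the set.

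Nucleotide supply held 4 genes, of which 3 fell. Thymidine kinase TK1, which salvages thymidine, was at 11.59, 11.59 and 11.74 in clone 7 and 11.62, 11.76 and 11.67 in clone 8, against 12.21, 12.13 and 12.02 in mock and 11.93, 12.01 and 12.02 in wild-type. No clone array reached a control array. TK1 fell by 0.46 ± 0.06, 1.38-fold (adjusted p = 0.00116). TYMS, which makes thymidylate, had the smallest difference of the step. It was at 12.10, 12.03 and 12.19 in clone 7 and 12.04, 12.16 and 12.03 in clone 8, against 12.38, 12.38 and 12.29 in mock and 12.11, 12.21 and 12.22 in wild-type. The clones lay below mock and overlapped wild-type, with a difference of -0.26 ± 0.06 against mock (adjusted p = 0.0206). Of ribonucleotide reductase, the large subunit RRM1 fell by 0.28 ± 0.06 (adjusted p = 0.0213) and RRM2, the subunit whose level limits the enzyme in S phase, was at log2 -0.27 ± 0.12 (adjusted p = 0.246), with an SD in clone 7 of 0.29.

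The last 6 genes act at S-phase entry, in protein turnover and on chromatin. E2F1, an activator of S-phase genes, fell by 0.25 ± 0.06 (adjusted p = 0.024), and UHRF1, which guides maintenance of DNA methylation, fell by 0.29 ± 0.06 (adjusted p = 0.0177). A second, dimmer probe set of UHRF1 gave log2 -0.08 ± 0.10 (adjusted p = 0.728). E2F2, a second activator, was at 7.98, 8.15 and 8.15 in clone 7 and 8.36, 8.13 and 8.12 in clone 8, against 8.24, 8.29 and 8.18 in mock and 8.11, 8.11 and 7.98 in wild-type. These levels lay below the array medians. Clone 7 lay below mock and mock above wild-type with no overlap, while clone 8 spanned the mock range (log2 -0.09 ± 0.07 for both clones against mock, adjusted p = 0.556).

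DTL, the receptor of the ubiquitin ligase that removes CDT1 in S phase, had a large difference that its spread left short of the threshold. It was at 11.84, 11.77 and 12.36 in clone 7 and 12.26, 12.38 and 11.60 in clone 8, against 12.42, 12.44 and 12.35 in mock and 12.25, 12.17 and 12.31 in wild-type. Clone 7 replicate 3 and clone 8 replicate 2 were within the mock range and the other clone arrays below it (log2 -0.37 ± 0.16, adjusted p = 0.216). Cyclin E genes, whose products drive CDK2 at S-phase entry, had opposite signs. CCNE1 was at 10.21, 10.15 and 10.38 in clone 7 and 10.29, 10.45 and 9.97 in clone 8, against 9.93 in each mock array and 9.91, 10.14 and 10.06 in wild-type. Every clone array was above mock, while clone 8 replicate 3 overlapped wild-type. The estimate of 0.31 ± 0.10 did not pass (adjusted p = 0.0798), but without clone 8 replicate 3 CCNE1 was higher at log2 0.38 (adjusted p = 0.00923, and from 0.00517 to 0.242 over the alternatives). CCNE2 was at log2 -0.21 ± 0.09 (adjusted p = 0.245).

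The 6 cultures of the clones were not alike. Median SDs over the set were 0.106 in clone 7 and 0.146 in clone 8, against 0.052 in mock and 0.065 in wild-type, and over all genes 0.082 and 0.144, against 0.055 and 0.071. Clone 7 replicate 3 lay above its clone's mean in 42 of the 51 genes (57.4% of all genes), with a median of 0.09. Clone 8 replicate 2 did so in 44 (44.8% of all genes), with a median of 0.13. Clone 8 replicate 3 lay below its clone's mean in 42 genes, with a median of -0.10, while 57.5% of all genes lay above it there. Against the mean of the 12 arrays the median gene of the set stood at -0.16, -0.14 and -0.01 in clone 7 and -0.14, 0.01 and -0.22 in clone 8, against 0.18, 0.15 and 0.12 in mock and 0.03, 0.06 and 0.12 in wild-type. No clone array reached a wild-type or mock array in this median.

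**Figure D3:**
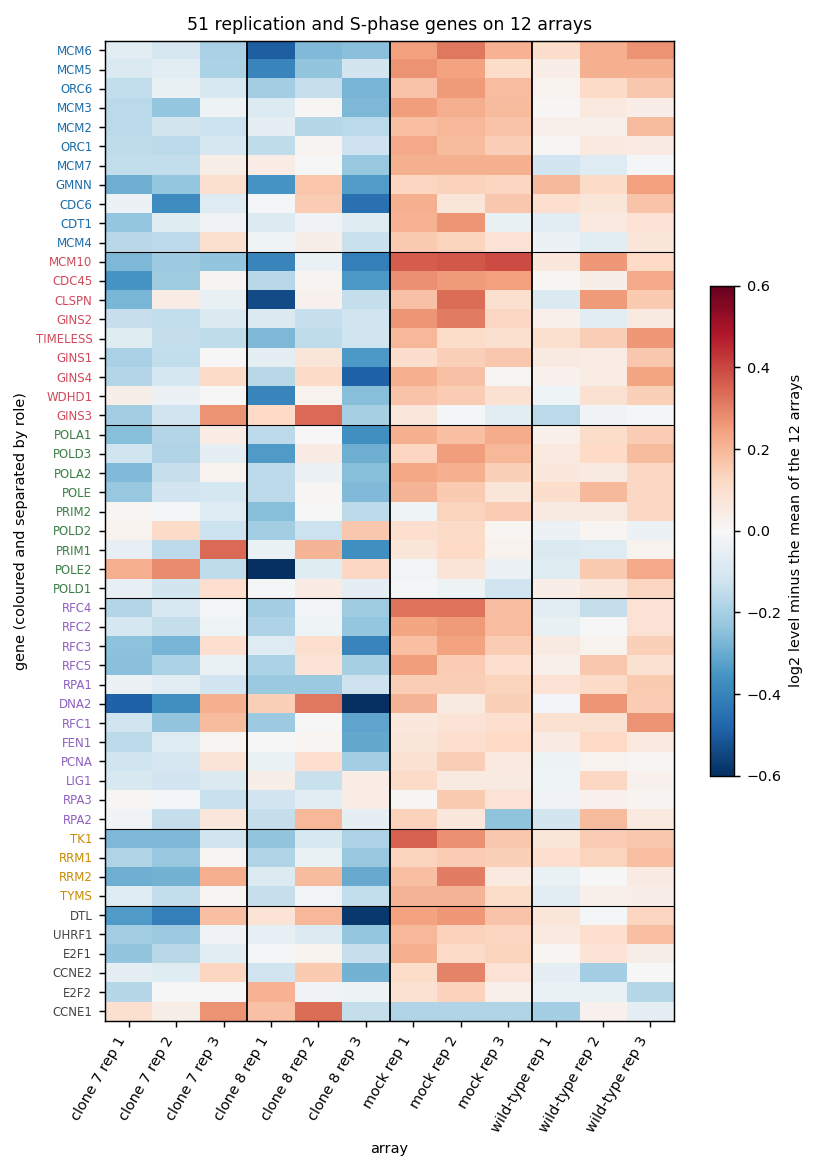
Log2 level minus the mean of the 12 arrays (colour scale, red above and blue below) for the 51 genes (vertical axis, grouped by role) on each array of clone 7, clone 8, mock and wild-type (horizontal axis). Clone 7 replicate 3 and clone 8 replicate 2 are paler than the other clone arrays, clone 8 replicate 3 is the darkest blue, and all 3 mock arrays are mostly red.

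The SD between cultures of a clone enters the test, so that genes whose cultures differed more were harder to call. When the set was ordered by the SD between cultures of a clone, the 17 genes with the least spread (SD 0.031 to 0.107) had a median difference of -0.29 and 12 calls. The next 17 (SD 0.108 to 0.161) had -0.29 and 10 calls, and the 17 with the most spread (SD 0.169 to 0.442) had -0.27 and 2 calls, for POLA1 and CDC45.

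**Figure D4:**
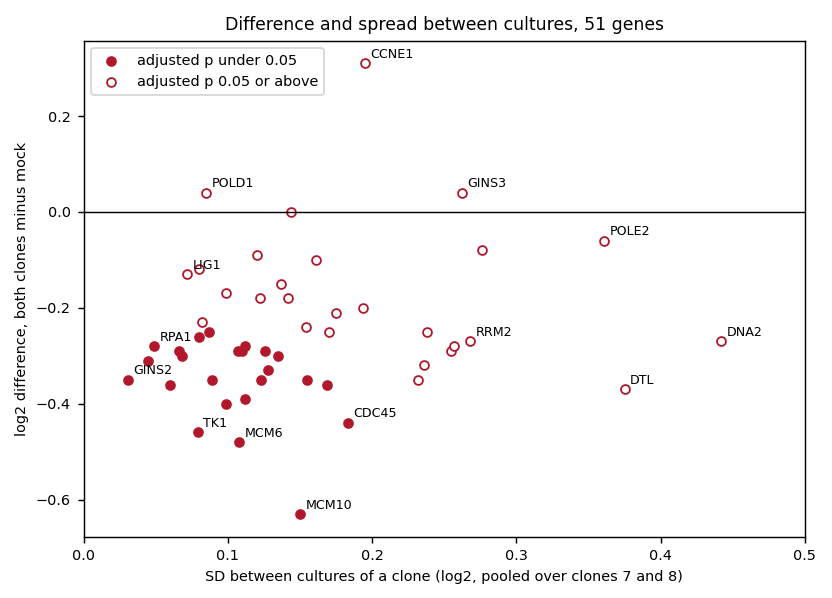
Log2 difference between both clones and mock (vertical axis) against the SD between cultures of a clone, pooled over clones 7 and 8 (horizontal axis), for the 51 genes, with filled points at an adjusted p under 0.05. Most filled points lie at SDs below 0.161, while DTL, DNA2 and POLE2 lie far to the right and are open.

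Each clone was also set against mock on its own, and these comparisons share the mock arrays. In clone 7, 14 of the 51 genes fell (1.32% of all genes), with a median of -0.29, and in clone 8, 20 fell (3.12% of all genes), with a median of -0.28. None rose in clone 7 (0 of 51, 1.82% of all genes) or in clone 8 (0 of 51, 1.97% of all genes) by limma. At an unadjusted p under 0.05, limma gave 31 lower in clone 7 (7.22% of all genes) and 35 lower in clone 8 (12.1% of all genes). At that limit CCNE1 alone was higher in each, against 7.53% of all genes in clone 7 and 9.71% in clone 8. MCM10 passed both limits in clone 7 (0.233% of all genes), and MCM10 and MCM6 did in clone 8 (0.456% of all genes). MCM6 was at log2 -0.59 ± 0.08 in clone 8 and -0.37 ± 0.08 in clone 7. Its fold in clone 8 dropped below the limit without mock replicate 2 (log2 -0.56) and without clone 8 replicate 1 (log2 -0.51). The clone 7 count was 2 without clone 7 replicate 1, clone 7 replicate 2, mock replicate 1 or mock replicate 2, 4 without mock replicate 3, 22 without clone 7 replicate 3 or clone 8 replicate 3, and 23 without clone 8 replicate 2. The clone 8 count was 5 without mock replicate 1 or mock replicate 2, 9 without mock replicate 3, 10 without clone 8 replicate 1, 12 without clone 8 replicate 3 and 33 without clone 8 replicate 2.

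Between the clones themselves no gene of the set passed the test in either direction (0 of 51, and 0% of all genes), with a median of -0.00 and a range from -0.34 ± 0.18 for POLE2 to 0.16 ± 0.22 for DNA2. POLE2 was at 9.30, 9.37 and 8.93 in clone 7 and 8.35, 9.01 and 9.21 in clone 8, against 9.07, 9.16 and 9.05 in mock and 9.01, 9.24 and 9.31 in wild-type. Its lowest clone array was clone 8 replicate 1. At an unadjusted p under 0.05, limma gave 3 genes lower in clone 8 than in clone 7 (3.42% of all genes) and 0 higher (3.79% of all genes). A missed threshold in 3 arrays against 3 does not show that the clones were alike.

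Mock against wild-type showed how far the control lines stood apart. Of the 51 genes 0 fell (1.24% of all genes) and 0 rose (1% of all genes), yet 44 estimates were above 0 and 7 below, against 43.1% of all genes below, and the median was 0.09, against 0.02 for all genes. At an unadjusted p under 0.05, limma gave 9 genes higher (6.2% of all genes) and 0 lower (5.86% of all genes) in mock. In 22 genes every mock array lay above every wild-type array, against 15.6% of all genes. RFC4 (log2 0.32 ± 0.08, adjusted p = 0.0677) and MCM7 (log2 0.28 ± 0.08, adjusted p = 0.0956) had the largest estimates. MCM7 was at 12.30 on each mock array, against 11.97, 12.01 and 12.08 in wild-type, and the clone arrays lay at 11.86 to 12.13. At MCM7 and RFC4 it was mock that stood apart, while the clones and wild-type overlapped. The same held at RFC2, TYMS and ORC1, among others.

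Against wild-type, 12 of the 51 genes fell in the clones (5.32% of all genes), 0 rose (4.63%) and 0 fell past both limits (0.673%). There were 46 estimates below 0, against 42.6% of all genes, and the median was -0.17. These 12 were MCM2, MCM5, MCM6, MCM10, ORC6, POLD3, POLE, RPA1, RRM1, TK1, TIMELESS and UHRF1. Of the genes whose call against mock was kept in every alternative setting, GINS2, RFC2 and ORC1 did not pass against wild-type, while the others did. GINS2 was at log2 -0.13 ± 0.06 (adjusted p = 0.184), RFC2 at -0.13 ± 0.06 (adjusted p = 0.187) and ORC1 at -0.15 ± 0.05 (adjusted p = 0.0942). At an unadjusted p under 0.05, limma gave 27 lower (12.8% of all genes) and 0 higher (12.3% of all genes). The largest was MCM6 at log2 -0.43 ± 0.07 (adjusted p = 0.00179), followed by MCM10 at -0.41 ± 0.08 (adjusted p = 0.00715). All 6 clone arrays lay below all wild-type arrays in 16 genes, against 8.38% of all genes. The count was 4 without wild-type replicate 2, 5 without wild-type replicate 3 and 25 without clone 8 replicate 2. Both comparisons of the clones use the same clone arrays.

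These genes were scattered over the genome. The 51 genes lay on 19 chromosomes. Between both clones and mock, 50 of them were below the median of their neighbours, the 10 genes tested on each side of them (17 in all for TYMS). As 48 of the 51 estimates were negative, that count largely repeats the signs. Its share over all genes was not computed. The neighbours' medians ran from -0.17 at MCM10 to 0.11 at GINS3, with a median of 0.01 over the set.

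Other genes of the pathway were counted in the same way. Of 39 further replication genes measured, 10 fell in the clones against mock (3.51% of all genes) and 0 rose (2.87% of all genes), with a median of -0.21. DBF4, the activating subunit of the CDC7 kinase that fires origins, fell by 0.53 ± 0.07 (adjusted p = 0.000907) and kept its call in every alternative. The exonuclease EXO1 (log2 -0.57 ± 0.13, adjusted p = 0.0199) and DSCC1 of an alternative clamp loader (log2 -0.49 ± 0.13, adjusted p = 0.0397) also fell, and both lost the call when any 1 of the 3 mock arrays was left out. DSCC1 lost it in 9 of the 12 cases with 1 array left out, all but clone 7 replicate 3, clone 8 replicate 2 and clone 8 replicate 3. Both also lost it in a fit to only the groups compared, and DSCC1 with the replicate number as a block. In clone 8 alone these 3 genes passed both limits.

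Of 29 other G1/S regulators measured (CDKN2C had none with a single symbol), 4 were lower (3.51% of all genes) and 1 higher (2.87% of all genes), with a median of -0.13. Cyclin A2 (CCNA2), which drives S phase, was lower at log2 -0.45 ± 0.12 (adjusted p = 0.044), and the repressor E2F8 at log2 -0.39 ± 0.08 (adjusted p = 0.0178). CDK2 and CCND3, named after their values were seen, were the others. CDK2 lost its call without mock replicate 1 or 2, clone 7 replicate 1 or 2, or wild-type replicate 2, and CCND3 without mock replicate 1 or 2. The CDK inhibitor p21 (CDKN1A) was higher by 0.36 ± 0.08 against mock (adjusted p = 0.0166) and by 0.61 ± 0.08 against wild-type (adjusted p = 0.000446). Without any 1 of the mock arrays the calls for E2F8, CCNA2 and CDKN1A against mock were lost. Among the cases with 1 array left out, CCNA2 kept its call only without clone 7 replicate 3, clone 8 replicate 2 or clone 8 replicate 3. In a fit to only the groups compared, E2F8, CCNA2 and CDK2 lost their calls. CCNA2 and CDK2 also lost theirs with the replicate number as a block, and CCNA2 with quantile normalization.

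Of 21 other nucleotide supply genes measured, 2 were lower (3.51% of all genes) and 1 higher (2.87% of all genes), with a median of -0.12. They were the dNTP hydrolase SAMHD1 (log2 -0.34 ± 0.08, adjusted p = 0.0239), the serine hydroxymethyltransferase SHMT1 (log2 -0.31 ± 0.08, adjusted p = 0.0404) and, higher, the purine synthesis enzyme GART (log2 0.32 ± 0.08, adjusted p = 0.0275). Each lost its call without any 1 of the mock arrays, without clone 7 replicate 1 and without clone 7 replicate 2. SHMT1 also lost it without clone 7 replicate 3, clone 8 replicate 1, wild-type replicate 1 or wild-type replicate 3. SHMT1 and GART lost it as well in a fit to only the groups compared and with the replicate number as a block. Compared with these lists, whose medians were -0.21, -0.13 and -0.12, the 51 genes had the lowest median, -0.28, a difference between lists that was not tested.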

How the data were processed

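Total RNA of 12 A172 cultures was hybridised to GeneChip Human Gene 1.0 ST arrays. The authors deposited log2 values, 1 per probe set and array, after their own summary and normalization. Partek is named in the submitters' processing notes, with no version, and the method behind these values was not given in the sources used here. No detection calls came with them. Arrays have no read depth, and their number limits the precision. Of 33297 probe sets, 19460 had 1 gene symbol in the platform annotation, and the one with the highest mean was kept for each of 18417 genes.

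The main test was limma 3.58.1 in R 4.3.3 (lmFit and eBayes, 1 fit per gene to all 4 groups), with 6 contrasts and p-values adjusted by the Benjamini-Hochberg method over all genes. Clones 7 and 8 had equal weight. Fell, rose, lower and higher stand for an adjusted p under 0.05, and the study's limit of 1.5-fold is named where used. Errors on differences are standard errors. The fit was also run on simulated data with independent arrays and the same SD for a gene in every group. It therefore does not check the fit for groups of unequal spread or correlated arrays, as here. Values on every array are given for genes past both limits and for the largest and smallest difference of each role, and also for CCNE1 and POLE2, chosen after their values were seen. Of other lists the 3 largest calls are named. The genes, lists and tests were chosen with earlier results of these data known. Alternatives covered normalization, filtering, probe sets, variance models, a replicate block and each array left out.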

Additional observations from a re-analysis of the deposited data

How the results depend on the processing

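Medians of the 51 genes moved by less than the spread between arrays in each comparison and setting but 1, and 0 of the 24 calls against mock changed sign. With array weights the lower counts were 40 (both clones against mock), 41 (clone 7 against mock) and 28 (both clones against wild-type). There was then 1 higher in both clones and in clone 7 against mock, and 10 higher in mock against wild-type. The share of all genes called is not given for any alternative setting, so a larger count there is not a stronger result for this set. With only the groups compared in the fit, both clones had 16 lower against mock (E2F1, MCM7, POLA1, POLD3, POLE, RFC5, RRM1 and TYMS lost their call), clone 8 had 2 lower, clone 7 had 1 higher and mock 7 higher than wild-type. Quantile normalization left 1 gene past both limits in clone 8, MCM10, and it and a trended robust fit each gave 1 higher in mock than wild-type. With 1 array left out, the lower counts ran from 9 to 31 (both clones against mock), 2 to 23 (clone 7), 5 to 33 (clone 8) and 4 to 25 (clones against wild-type), each of these had 0 to 1 higher, as did mock against wild-type, and 1 to 2 passed both limits in clone 8.

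Replicate numbers did not pair the cultures: deviations of 18 same-numbered pairs correlated at -0.8322 to 0.4463, 4 of them over 0.1, and 1 of 12 arrays was closest to its own number. The 36 pairs with different numbers correlated at -0.5528 to 0.7341, the highest between clone 7 replicate 1 and clone 8 replicate 3. With the number as a block, 7 genes were lower in clone 7, 12 in clone 8 and 22 in both clones against mock, where E2F1, MCM7 and RFC5 lost their call.

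The lowest of these correlations, -0.8322, was between clone 7 replicate 3 and clone 8 replicate 3. Leaving out both, a setting chosen after seeing the data, gave 34 lower and 2 past both limits in clone 7, 20 lower against wild-type, 1 higher in both clones against mock, in clone 8 against mock and in both clones against wild-type, and 2 higher in mock against wild-type. Clone 8 against clone 7 then had 3 lower, 6 higher, 1 past both limits and a median of 0.10. The cause was not tested for any of these shifts.

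The 3 arrays of 1 mock line enter every comparison with mock. Without detection calls, dim genes such as E2F2 have only their level to set them apart from background.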
